A study of Mus musculus with 9 samples.

Results

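Bile acids are made from cholesterol in hepatocytes, and 10 genes that carry out or control this were followed in liver RNA: *Cyp7a1*, *Cyp8b1*, *Cyp27a1*, *Cyp7b1*, *Akr1d1*, *Baat*, *Abcb11*, *Slc10a1*, *Nr0b2* and *Nr1h4*. They were chosen by symbol for their known roles, though with earlier results of these data known, and are 10 of the 51912 genes with a deposited value. All 10 were detected in every liver and passed the filter on low values. The livers came from 9 mice, fasted before collection and of the genotype *Apoe*-/- *Ndst1* f/f *Alb-Cre*+ after backcrossing to C57Bl/6, of which 5 were given an antisense oligonucleotide (ASO) against apoC-III and 4 a control ASO, each by intraperitoneal injection at 50 mg/kg/week for 8 weeks. Both groups therefore lacked apoE in the whole body and, because the *Alb* promoter drives Cre in hepatocytes, the heparan sulfate sulfotransferase NDST1 in hepatocytes. No wild-type livers and no untreated livers of this genotype were compared. For these livers the sources used here give no diet, age or sex.

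Both a classic and an alternative route lead from cholesterol to bile acids. The classic route opens with CYP7A1, which sets its rate, and CYP8B1 then decides how much cholic acid is made. The alternative route opens with CYP27A1 in mitochondria and continues with CYP7B1, AKR1D1 reduces the steroid ring of the intermediates of both routes, and BAAT joins the finished bile acid to taurine or glycine. BSEP, encoded by *Abcb11*, pumps bile salts into bile, and NTCP, encoded by *Slc10a1*, takes them back up from portal blood. The bile acid receptor FXR (*Nr1h4*) induces *Abcb11* and the corepressor SHP (*Nr0b2*), and SHP lowers transcription of *Cyp7a1* and *Cyp8b1*, partly through the receptor LRH-1 (*Nr5a2*). Bile acid synthesis follows a daily rhythm and responds to feeding, and it is a main way by which the body disposes of cholesterol.

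The stretch of 120 bases before the start of transcription is shown for *Abcb11*, *Nr0b2* and *Cyp8b1*, because these genes stand for the induced, the feedback and the repressed side of the FXR loop. Sequences are from RefSeq on GRCm38.p6, read 5′ to 3′ on the strand of the gene, and 7 of the 10 genes had a window in that table. Capitals mark any of the short motifs that were searched on both strands within 250 bases before the start: AGGTCA, the half-site bound by many nuclear receptors, TCAAGG, the core of the LRH-1 site, TATAAA, the TATA box, and TTATGTAA, a D-box for clock output factors. The stretch shown for *Abcb11* lies at chr2:69342617-69342736 on the minus strand, *Nr0b2* at chr4:133553256-133553375 on the plus strand, and *Cyp8b1* at chr9:121916306-121916425 on the minus strand.
Abcb11: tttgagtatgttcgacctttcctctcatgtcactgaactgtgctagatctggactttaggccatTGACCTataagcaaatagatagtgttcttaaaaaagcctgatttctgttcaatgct
Nr0b2: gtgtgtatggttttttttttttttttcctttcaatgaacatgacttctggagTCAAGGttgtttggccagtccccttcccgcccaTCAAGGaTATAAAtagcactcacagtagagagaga
Cyp8b1: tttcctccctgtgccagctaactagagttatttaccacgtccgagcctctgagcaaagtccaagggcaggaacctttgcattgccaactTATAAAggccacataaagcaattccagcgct

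In *Abcb11* the letters TGACCT, which read AGGTCA on the other strand, lay 56 to 51 bases before the start. *Nr0b2* held TCAAGG at 68 to 63 and again at 35 to 30 bases before its start, the nearer one just before a TATA box at 28 to 23. *Cyp8b1* held a TATA box at 31 to 26 bases before its start. Such short words are frequent: of the 32851 promoter windows of the same length, 14.0% held AGGTCA, 12.5% held TCAAGG and 12.4% held TATAAA, whereas the D-box was in 0.819% and in no window of these 7 genes. A match describes the letters in the window and is not evidence of a bound site.

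Values are given as rescaled TPM. TPM (transcripts per 1000000) is the length-corrected share a gene takes of all transcripts in a liver, as deposited. In these livers the RNA of the signal recognition particle (7SL RNA) took 64.0% to 83.6% of the deposited TPM and nuclear protein-coding genes only 1.94% to 8.64%, so the same TPM meant different amounts of messenger RNA in different livers. Nuclear protein-coding genes were therefore rescaled to 1000000 per liver and divided by a factor computed from genes detected in all 9 livers. A single deposited TPM equals 12.6 to 105 rescaled TPM, with the highest value in control ASO liver 4, which had the lowest protein-coding share. The number of reads behind a TPM cannot be recovered, so depth is unknown and the spread between mice is the only error given. The albumin gene *Alb*, a hepatocyte marker, was at 15492 to 40201 rescaled TPM over the 9 livers, so the tissue matched its label. Since this is whole tissue, fewer cells of a type and less RNA per cell cannot be told apart. The target of the ASO differed as labeled: *Apoc3* was at 338 to 630 rescaled TPM in the apoC-III ASO livers and 3208 to 4345 with control ASO, so that it fell by 3.01 on the log2 scale (SE 0.23, limma with Benjamini-Hochberg adjusted p = 3.84e-04).

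None of the 10 bile acid genes was called as changed by apoC-III ASO treatment. A call needed a Benjamini-Hochberg adjusted p under 0.05 in limma over all 11976 genes tested and a change over 1.5-fold. By that rule 0.0167% of all genes tested were called, which are the 2 genes *Apoc3* and *Anpep*, both lower. The study, with DESeq2 on counts and the same thresholds, reported more genes. None of the 10 had an unadjusted p under 0.05, against 5.56% of all genes, and none had groups that did not overlap, against 1.83%. The log2 fold change (apoC-III ASO over control ASO) was below 0 in 7 of the 10, compared with 50.2% of all genes, and its median was -0.37 over the 10 and -0.0013 over all genes. The 95% confidence intervals of all 10 included 0. Several were wide enough to hold a 2-fold change as well, so for those genes the interval spans both no difference and a difference of that size.

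**Figure D1:**
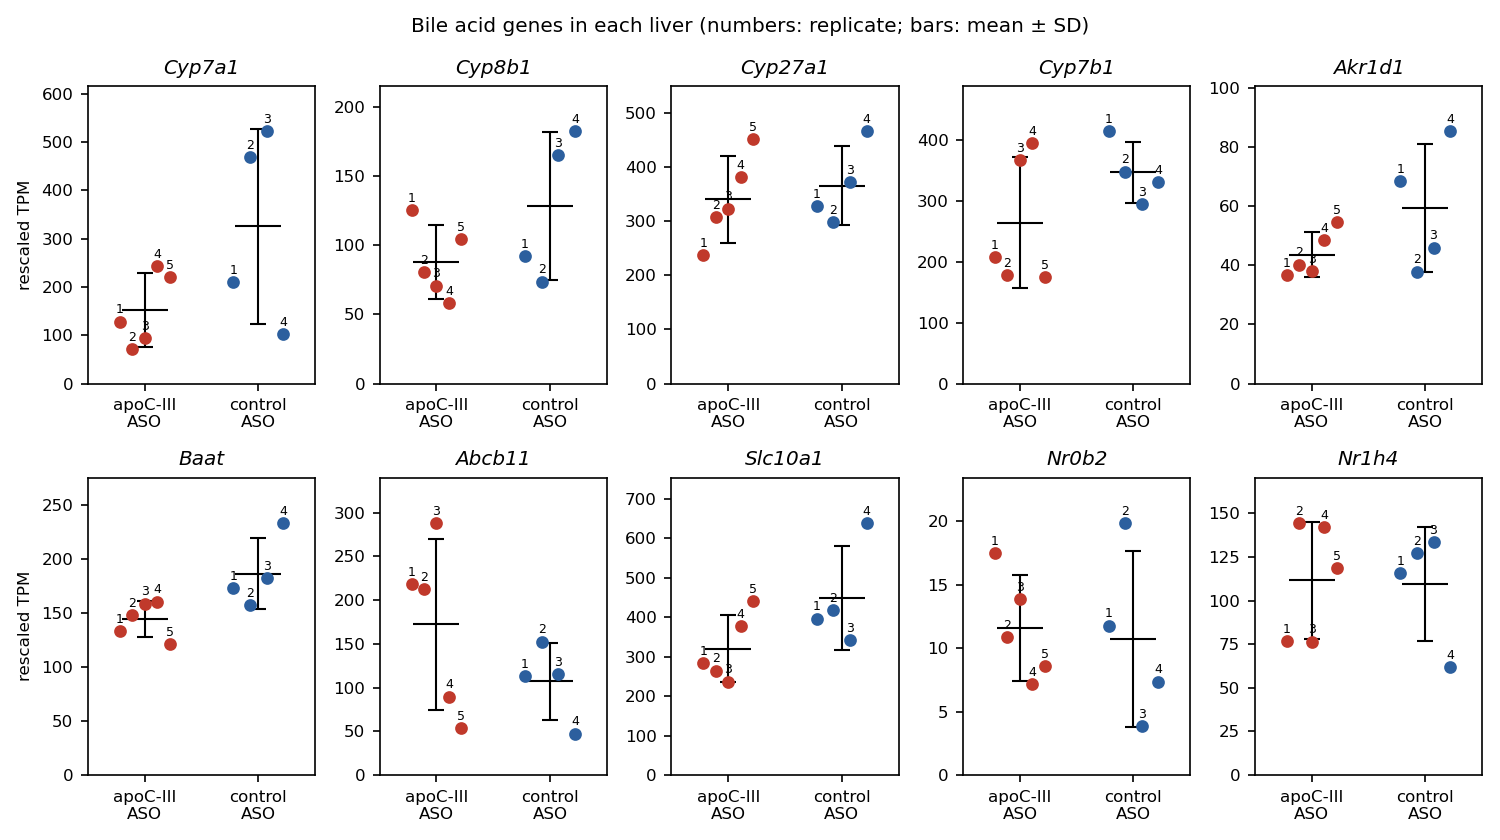
Rescaled TPM (y axis, linear from 0) of each of the 10 bile acid genes in the 5 apoC-III ASO livers (red) and 4 control ASO livers (blue), with replicate numbers beside the points and the mean ± SD as bars. The groups overlap in every panel, and apoC-III ASO livers 1 to 3 sit above all control ASO livers for *Abcb11*.

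*Cyp7a1* (ENSMUSG00000028240, GRCm38 chr4:6265612-6275633, minus strand), the rate-limiting enzyme of the classic route, had the largest difference of means of the 10. It was at 128, 71.3, 94.5, 244 and 220 rescaled TPM in apoC-III ASO livers 1 to 5 and at 210, 469, 522 and 102 in control ASO livers 1 to 4. Control ASO livers 2 and 3 were above every apoC-III ASO liver, while control ASO livers 1 and 4 fell among them. The means were 151 ± 76.5 (SD, n = 5) and 326 ± 202 (SD, n = 4), and the fitted fold was 0.506. The log2 fold change of -0.98 (SE 0.51, 95% confidence interval -2.09 to 0.12) did not pass (limma with Benjamini-Hochberg, adjusted p = 0.886, unadjusted 0.0766). Without control ASO liver 4, the liver with the lowest protein-coding share, it was -1.45 with an adjusted p of 0.802 in limma. That was the largest difference with 1 liver left out, and the smallest was -0.67, without control ASO liver 3.

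*Cyp8b1* (ENSMUSG00000050445, chr9:121914356-121916305, minus strand), the sterol 12-hydroxylase that leads to cholic acid, was at 125, 80.6, 70.7, 57.9 and 104 rescaled TPM in the apoC-III ASO livers and at 91.8, 73.5, 165 and 182 in the control ASO livers. Control ASO livers 3 and 4 were above all 5 apoC-III ASO livers and the other 2 lay inside their range. The group means were 87.7 ± 27.0 and 128 ± 53.4, and the log2 fold change was -0.49 (95% confidence interval -1.19 to 0.21). The order of the control ASO livers in *Cyp8b1* was not that in *Cyp7a1*: liver 3 was high in both, liver 4 had the highest *Cyp8b1* of all 9 and the lowest *Cyp7a1* of its group, and liver 2 was high in *Cyp7a1* alone.

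The alternative route began with *Cyp27a1* (ENSMUSG00000026170, chr1:74713574-74737892, plus strand), the mitochondrial sterol 27-hydroxylase, which was at similar levels in the groups. Its values were 238, 308, 323, 382 and 452 rescaled TPM in apoC-III ASO livers 1 to 5 and 328, 298, 372 and 467 in control ASO livers 1 to 4. Only apoC-III ASO liver 1 lay outside the control range. The means of 341 ± 80.9 and 366 ± 73.5 gave a log2 fold change of -0.12 (95% confidence interval -0.64 to 0.40), an interval that leaves out a 2-fold change in either direction. This sign turned under other scalings, for instance to 0.36 when the protein-coding values were not divided by factors.

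*Cyp7b1* (ENSMUSG00000039519, chr3:18071950-18243338, minus strand), the oxysterol 7-hydroxylase, was at 208, 178, 367, 394 and 174 rescaled TPM with apoC-III ASO and at 414, 347, 294 and 330 with control ASO. The apoC-III ASO livers fell into a low set (1, 2 and 5), under every control, and a pair (3 and 4) within the control range. Means were 264 ± 108 and 346 ± 50.1, and the log2 fold change was -0.47 (95% confidence interval -1.11 to 0.16). *Akr1d1* (ENSMUSG00000038641, chr6:37530173-37568815, plus strand), the 5-beta-reductase shared by both routes, was at 36.8, 40.1, 37.9, 48.4 and 54.5 rescaled TPM against 68.4, 37.8, 45.9 and 85.3. The apoC-III ASO values of *Akr1d1* lay near the bottom of a wider control range, at 43.5 ± 7.63 against 59.4 ± 21.6, with a log2 fold change of -0.38 (95% confidence interval -0.96 to 0.19).

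*Baat* (ENSMUSG00000039653, chr4:49489422-49506557, minus strand), the conjugating enzyme, came nearest to separate groups. It was at 134, 148, 159, 161 and 121 rescaled TPM in the apoC-III ASO livers and at 173, 158, 182 and 234 in the control ASO livers, so that only control ASO liver 2 fell among the treated livers. Means were 145 ± 16.9 and 187 ± 33. The log2 fold change was -0.36 (95% confidence interval -0.79 to 0.07), with an adjusted p of 0.899 by limma with Benjamini-Hochberg. An exact two-sided permutation test of *Baat* over all ways to split the livers into 5 and 4 gave p = 0.0476, which was 0.916 after adjustment over all genes tested.

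Of the transporters, *Abcb11* (ENSMUSG00000027048, chr2:69238282-69342616, minus strand), the canalicular bile salt export pump, had the highest positive log2 fold change of the 10 genes. Its values were 218, 213, 288, 89.6 and 53.3 rescaled TPM in apoC-III ASO livers 1 to 5 and 113, 153, 115 and 47.3 in control ASO livers 1 to 4. ApoC-III ASO livers 1 to 3 were above every control, and livers 4 and 5 were within the control range. The means of 172 ± 97.8 and 107 ± 43.8 gave a log2 fold change of 0.55 (SE 0.50, 95% confidence interval -0.54 to 1.64, limma with Benjamini-Hochberg adjusted p = 0.936). Livers 1 to 3 hold the 3 highest values of all 9, so leaving them out had to lower the fold change, and the log2 value without them was -0.51. In the fit with the replicate number as a block it was 0.91, with an unadjusted p of 0.00318 and an adjusted p of 0.522 in limma. No control ASO liver has the number 5, so that fit sets aside apoC-III ASO liver 5, the lowest treated value. Its fold change is the same as with liver 5 left out.

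*Slc10a1* (ENSMUSG00000021135, chr12:80953183-80968705, minus strand), the sodium-dependent importer NTCP, pointed the other way. It was at 283, 265, 237, 377 and 441 rescaled TPM with apoC-III ASO and at 396, 418, 341 and 639 with control ASO. The livers that were highest in *Abcb11*, apoC-III ASO livers 1 to 3, were here the lowest of all 9. Means were 321 ± 85.4 and 449 ± 131, and the log2 fold change was -0.48 (95% confidence interval -1.05 to 0.09, limma with Benjamini-Hochberg adjusted p = 0.899). Without livers 1 to 3, whose removal had to raise it, the log2 fold change of *Slc10a1* was -0.10.

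The regulators showed no common shift. *Nr0b2* (ENSMUSG00000037583, chr4:133553376-133556536, plus strand), encoding SHP, was the least abundant of the 10, at 17.5, 10.9, 13.9, 7.16 and 8.57 rescaled TPM in the apoC-III ASO livers and 11.8, 19.9, 3.82 and 7.36 in the control ASO livers. All treated values lay inside the control range. The means were 11.6 ± 4.15 and 10.7 ± 6.92, and the log2 fold change was 0.24 (95% confidence interval -0.63 to 1.12). As deposited, *Nr0b2* was at 0.0701 to 1.24 TPM, the lowest range of the 10.

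*Nr1h4* (ENSMUSG00000047638, chr10:89454234-89533585, minus strand), encoding FXR itself, was at 76.8, 145, 76.4, 142 and 118 rescaled TPM with apoC-III ASO and at 116, 127, 134 and 61.8 with control ASO. High and low livers occurred in both groups. Its means of 112 ± 33.6 and 110 ± 32.7 gave a log2 fold change of 0.03 (95% confidence interval -0.62 to 0.69), the smallest of the 10.

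Across all 9 livers the genes ranked, in mean rescaled TPM, as *Slc10a1* (378), *Cyp27a1* (352), *Cyp7b1* (301), *Cyp7a1* (229), *Baat* (163), *Abcb11* (143), *Nr1h4* (111), *Cyp8b1* (106), *Akr1d1* (50.6) and *Nr0b2* (11.2). Because TPM is per length, these levels can be compared between genes. Most neighbors in the order did not differ beyond their spread. The exceptions were *Cyp8b1* over *Akr1d1*, with a mean log2 ratio of 1.02 (SD 0.52), and *Akr1d1* over *Nr0b2*, with 2.27 (SD 0.99), each in 9 of 9 livers.

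The 10 genes also differed in how much they varied between mice of a group. The pooled within-group SD on the log2 scale was 0.92 for *Cyp7a1*, 0.90 for *Abcb11* and 0.69 for *Nr0b2*, and 0.53 for *Cyp8b1*. It was 0.48 for *Nr1h4* and 0.45 for *Cyp7b1*. The lowest were 0.20 for the conjugating enzyme *Baat*, 0.32 for *Cyp27a1* and 0.38 for *Slc10a1*. The median over all 11976 genes was 0.44, and 6 of the 10 were above it. Within the apoC-III ASO group the highest liver exceeded the lowest 5.41-fold for *Abcb11* and 1.32-fold for *Baat*.

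Added together, the 10 genes took 1459 to 1904 rescaled TPM in the apoC-III ASO livers (median 1668) and 1923 to 2176 in the control ASO livers (median 2129). The gap between the ranges was small, and the sum is weighted toward the abundant genes. On TPM as deposited the sums overlapped, at 49.8 to 104 against 20.5 to 153. They also overlapped without the factors, at 1641 to 2074 against 1058 to 2411. With median-of-ratios on all genes as deposited they did not, at 64.9 to 85.5 against 85.8 to 98.1.

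Ratios of a pair of genes within a liver do not depend on how that liver was scaled. The ratio of *Abcb11* to *Slc10a1*, export over import, was 0.771, 0.803, 1.22, 0.238 and 0.121 in apoC-III ASO livers 1 to 5. In control ASO livers 1 to 4 it was 0.286, 0.365, 0.337 and 0.0740. Livers 1 to 3 of the treated group were above all controls and the other 2 were below 3 of the 4 controls. The mean log2 ratio differed by 1.04 (p = 0.286, exact two-sided permutation test, 0.873 after Benjamini-Hochberg adjustment over 5 ratios). The smallest p that 5 against 4 livers can give in this test is 0.0159.

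The ratio of *Cyp8b1* to *Cyp7a1*, which bears on the share of cholic acid, was 0.238 to 1.13 with apoC-III ASO and 0.157 to 1.78 with control ASO. Its mean log2 ratio differed by 0.49 (p = 0.571, exact permutation test, adjusted 0.873). The ratio of *Cyp7b1* to *Cyp7a1*, alternative over classic route, was 0.792 to 3.88 against 0.564 to 3.22, a log2 difference of 0.52 (p = 0.476, exact permutation test, adjusted 0.873). Both control extremes came from single livers: control ASO liver 4 was highest in both ratios of its group. *Nr0b2* to *Nr1h4* was 0.0504 to 0.227 against 0.0286 to 0.156 (log2 difference 0.26, p = 0.698, exact permutation test, adjusted 0.873). *Akr1d1* to *Baat* was 0.238 to 0.449 against 0.240 to 0.395 (log2 difference -0.03, p = 0.905, exact permutation test, adjusted 0.905). None of the 5 ratios differed beyond the spread between mice.

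**Figure D2:**
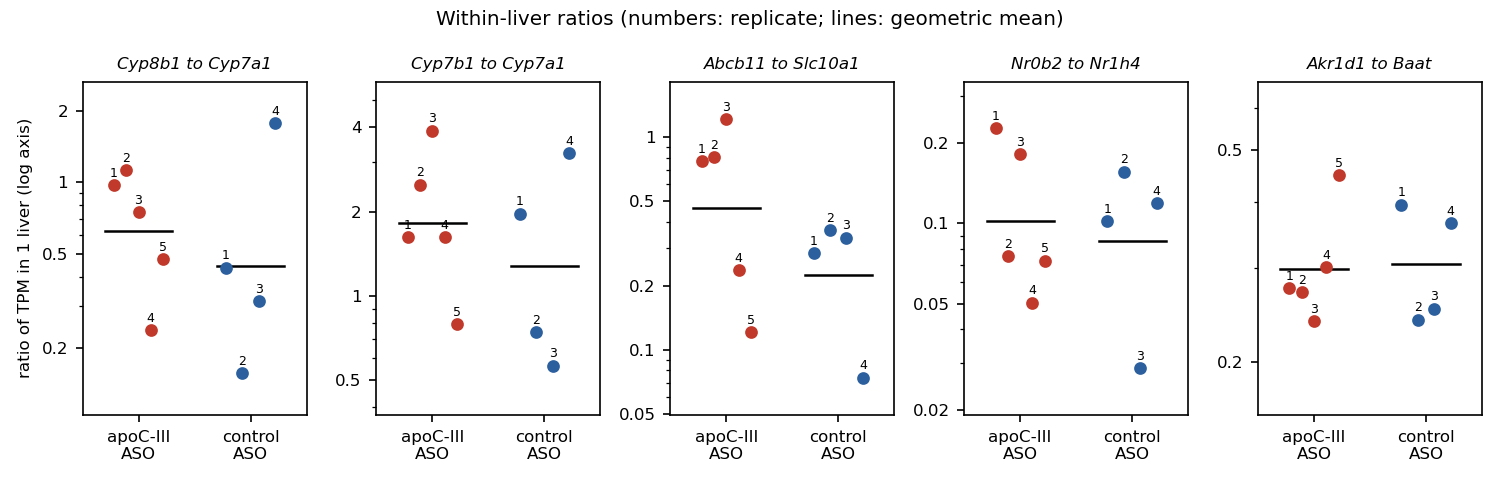
Ratio of TPM of a pair of genes in 1 liver (y axis, log scale) for 5 pairs in the 5 apoC-III ASO livers (red) and 4 control ASO livers (blue), with replicate numbers and the geometric mean as a line. *Abcb11* to *Slc10a1* is 0.771 to 1.22 in apoC-III ASO livers 1 to 3 and at most 0.365 in the control ASO livers, with the remaining treated livers at 0.238 and 0.121.

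Covariation along the FXR loop was looked at over the 9 livers for 5 pairs. On log2(rescaled TPM + 1), *Nr0b2* with *Cyp7a1* gave r = -0.26 (p = 0.506) and rho = -0.27 (p = 0.493), and *Nr0b2* with *Cyp8b1* gave r = -0.44 (p = 0.239) and rho = -0.28 (p = 0.463), each by an exact permutation test. *Nr1h4* with its targets gave r = -0.23 (p = 0.566) and rho = -0.30 (p = 0.437) for *Nr0b2* and r = 0.03 (p = 0.932) and rho = 0.03 (p = 0.948) for *Abcb11*, also by exact permutation. *Cyp7a1* with *Cyp8b1* gave r = 0.04 (p = 0.923) and rho = 0.03 (p = 0.948) by the exact permutation test. Adjusted over the 5 pairs, every p of r was 0.932 and the p of rho were 0.822 to 0.948. Leaving out the 2 livers farthest from the median of the first gene gave r of -0.34, -0.01, -0.50, -0.29 and -0.49 in the same order. No pair was correlated beyond chance pairing of the livers, and each group alone was too small (5 and 4) for a correlation. On TPM as deposited, where a liver's scale enters both genes, all 5 r were positive, at 0.42, 0.55, 0.59, 0.73 and 0.65 in the same order, with adjusted exact permutation p of 0.134 to 0.255. Without factors *Nr1h4* with *Abcb11* gave 0.64 (adjusted exact permutation p = 0.498).

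ApoC-III ASO livers 1 to 3, the highest in *Abcb11*, were noted for their values in genes of the circadian clock. In apoC-III ASO livers 1 to 3, 9 of 15 clock genes lay outside the range of the other 6 livers, 8 of them among the 14 that were tested. Of all genes tested 6.96% separated these livers in that way, and of the 10 bile acid genes 2 did, *Abcb11* and *Slc10a1*. *Dbp*, a clock output factor, was at 2.74 to 22.5 rescaled TPM there and at 69.0 to 154 elsewhere, and *Arntl*, which encodes the activator BMAL1, was at 11.2 to 31.3 against 0.324 to 2.78. *Nr1d1*, a clock repressor, was at 21.8 to 42.8 against 1.93 to 26.1 and overlapped. In the same 3 livers *Abcb11* was at 213 to 288 against 47.3 to 153, *Slc10a1* at 237 to 283 against 341 to 639, and *Cyp7a1* at 71.3 to 128 against 102 to 522. These livers were picked after their clock values were seen, so the count of clock genes outside the range is not independent of that choice. The time of day at which livers were taken is not given in the sources used here. The part of the clock genes in the bile acid values was not tested. As a list, the clock genes had 4 higher and 10 lower of 14 tested, with 0 called and a median log2 fold change of -0.31. In limma 4 had an unadjusted p under 0.05, of which 2 were higher and 2 lower. Over all genes tested 50.2% were below 0, 0.0167% were called and 5.56% had an unadjusted p under 0.05. Without those 3 livers, the log2 fold change was -0.22 for *Cyp7a1*, -0.61 for *Cyp8b1* and -0.40 for *Baat*, with 0 of the 10 bile acid genes called, and with 2 treated livers left *Apoc3* itself was at -2.69 with an adjusted p of 0.104 in limma.

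**Figure D3:**
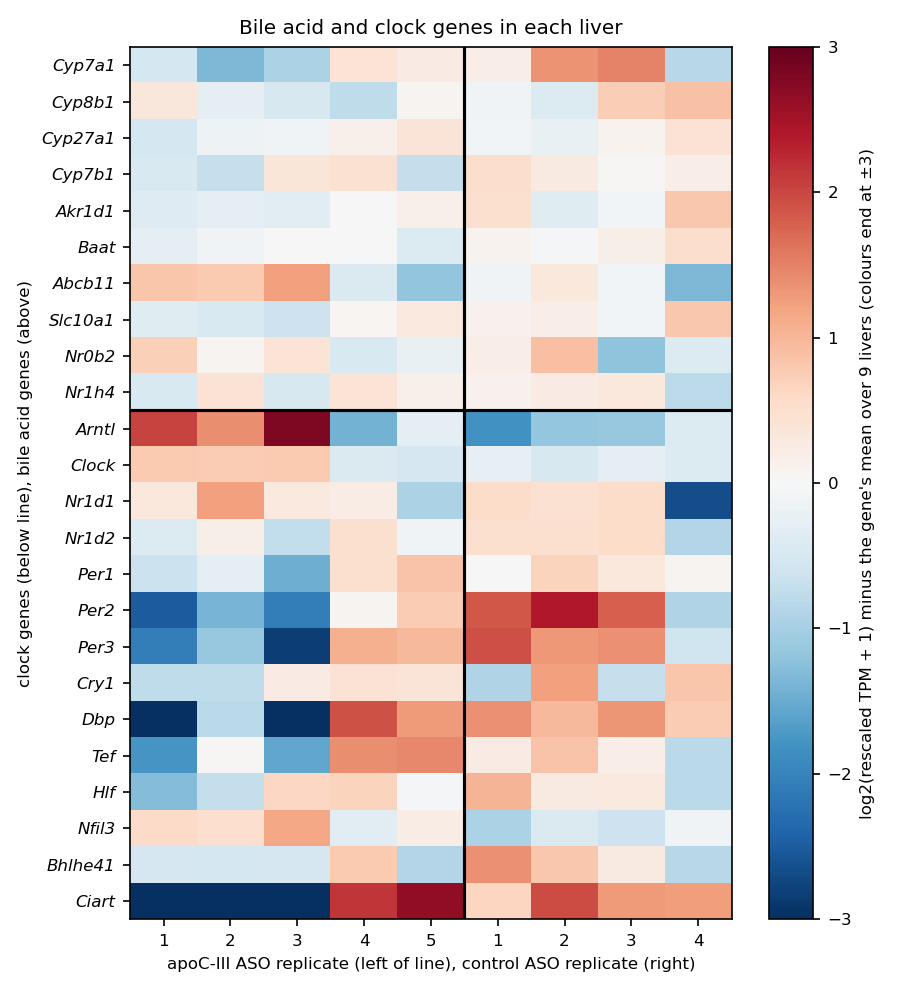
Color scale of log2(rescaled TPM + 1) minus the mean of the gene over all 9 livers, with livers in columns (apoC-III ASO left of the vertical line, control ASO right) and the 10 bile acid genes above and clock genes below the horizontal line, with colors ending at ±3. *Abcb11* and *Arntl* are red and *Dbp* and *Ciart* blue in apoC-III ASO livers 1 to 3.

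Other genes of the pathway, from lists written from general knowledge, gave the same absence of calls. Of 16 further genes of synthesis and conjugation, 15 were tested, 6 were higher and 9 lower, none was called, and the median log2 fold change was -0.17. *Acox2*, the peroxisomal oxidase that shortens the side chain, was at 226 ± 41.3 against 157 ± 14.4 rescaled TPM, with a log2 fold change of 0.51 (unadjusted p = 0.0300, adjusted p = 0.878, limma with Benjamini-Hochberg) and was the only gene of this list with an unadjusted p under 0.05. Its treated liver 4, at 163, fell within the control range of 137 to 171. *Slc27a5*, the ligase that activates bile acids for BAAT, was at 360 ± 118 against 453 ± 86.8, and the reductase *Akr1c6* at 389 ± 107 against 551 ± 224. *Acnat1*, a peroxisomal gene related in sequence to *Baat*, was at 48.3 ± 21.8 against 61.5 ± 10.1, with reads that may be shared with its close copy *Acnat2*. *Ch25h* was listed at 0 in all livers.

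Of 16 further transport genes, 12 were tested, 5 were higher and 7 lower, none was called, and the median log2 fold change was -0.08. *Slc10a2* (chr8:5083219-5105351), the apical sodium-dependent bile acid transporter ASBT known from ileum and bile duct cells, differed most. It was at 2.76, 6.51, 5.0, 5.21 and 7.42 rescaled TPM with apoC-III ASO and at 13.0, 10.3, 14.2 and 20.3 with control ASO. On rescaled TPM the groups did not overlap, as in 1.83% of all genes tested, with the highest treated liver under the lowest control. As deposited the groups overlapped in *Slc10a2*, at 0.196 to 0.425 TPM with apoC-III ASO and 0.194 to 1.03 with control ASO. The log2 fold change was -1.29 (SE 0.28, 95% confidence interval -1.91 to -0.67), with an unadjusted p of 7.07e-04 that did not hold over all genes (adjusted p = 0.644, limma with Benjamini-Hochberg). *Slc10a2* is labeled in the study's heat map of protein-coding genes that had an adjusted p under 0.05 by DESeq2 on counts. *Serpina1c* and *Lrat*, named further on, are labeled there too. The study's test used these same livers, so none of the 3 is independent evidence. Without apoC-III ASO livers 1 to 3 the log2 fold change of *Slc10a2* was -1.06.

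Markers of bile duct cells were looked at beside *Slc10a2*. The summed cholangiocyte list of 6 genes was at 38.3 to 82.8 rescaled TPM with apoC-III ASO and 41.5 to 122 with control ASO. *Krt7*, *Epcam* and *Cftr* were under the minimum, and the sum was mostly *Spp1*, at 62.6 ± 16.4 against 71.7 ± 33.4. Of the 3 tested, 1 was higher and 2 lower, with 0 called. The part of bile duct cells in the *Slc10a2* values was not tested.

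The other transporters in the list differed less. *Slco1a4*, an organic anion importer, was at 44.0 ± 13.3 against 65.3 ± 25.3 rescaled TPM, and the microsomal epoxide hydrolase *Ephx1* at 424 ± 153 against 325 ± 33.8. *Slco1b2*, the importer of unconjugated bile acids, was at 985 ± 92.1 against 1420.0 ± 835, where control ASO liver 4 alone was at 2658. *Slc51a*, *Slc51b* and the ileal binding protein *Fabp6* were listed at 0 in all livers, and *Abcc4* was under the minimum.

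Of 18 further regulators, 15 were tested, 6 were higher and 9 lower, none was called and none had an unadjusted p under 0.05, and the median log2 fold change was -0.05. The xenobiotic receptor CAR, *Nr1i3*, was at 182 ± 39.6 against 254 ± 75.4 rescaled TPM, and the hepatocyte factor *Hnf4a* at 262 ± 55.2 against 201 ± 55.9. *Fgfr4*, the hepatocyte receptor for the intestinal hormone FGF15, was at 20.7, 22.4, 22.2, 11.5 and 11.8 with apoC-III ASO and at 11.8, 12.6, 12.7 and 13.8 with control ASO. Treated livers 1 to 3 stood above the other 6, and 6.96% of all genes tested separated these livers in either direction. The log2 fold change of *Fgfr4* was 0.39 (95% confidence interval -0.16 to 0.95). *Gpbar1* was listed at 0 in all livers, and *Fgf15* and *Vdr* were under the minimum.

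**Figure D4:**
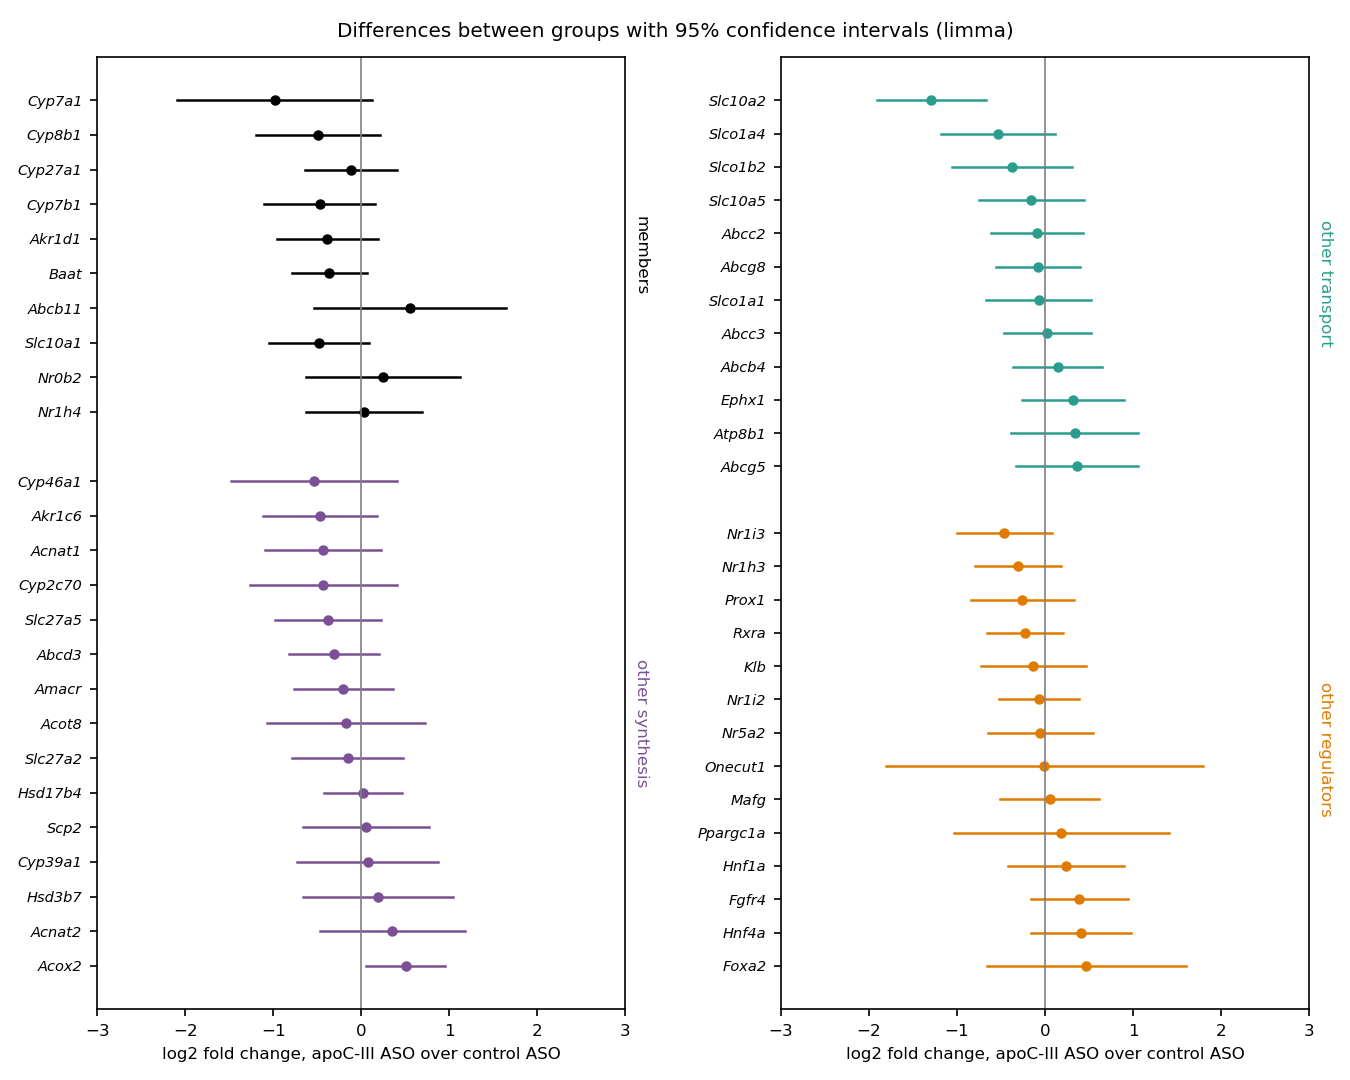
Log2 fold change of apoC-III ASO over control ASO (x axis) with its 95% confidence interval from limma, for the 10 bile acid genes and the tested genes of the other synthesis, transport and regulator lists, with 1 regulator left out. The intervals of all genes shown include 0 except those of *Acox2* (0.06 to 0.95) and *Slc10a2* (-1.91 to -0.67).

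The summed levels of cell type markers overlapped between the groups in each list. The 6 hepatocyte markers summed to 23588 to 53575 rescaled TPM with apoC-III ASO and 32739 to 43252 with control ASO (2 higher, 4 lower, of which *Serpina1c* had an unadjusted p under 0.05, at a log2 fold change of -0.82). Macrophage markers summed to 66.4 to 102 against 63.3 to 114 (3 higher, 3 lower, *Cd5l* the most abundant) and sinusoidal endothelial markers to 151 to 395 against 184 to 327 (4 higher, 2 lower, *Stab1* the most abundant). Stellate cell markers were lower in 6 of 6, compared with 50.2% of all genes, with a median log2 fold change of -0.45. They summed to 197 to 299 against 258 to 456, led by *Ecm1* at 130 ± 34.7 against 164 ± 41.4. In limma 2 of the 6 had an unadjusted p under 0.05, compared with 5.56% of all genes. On rescaled TPM the groups did not overlap in the stellate marker *Lrat*, as in 1.83% of all genes tested. *Lrat* was at 0.989 to 1.65 against 2.32 to 5.35 rescaled TPM (log2 fold change -0.89, adjusted p = 0.849, limma with Benjamini-Hochberg). As deposited the groups overlapped in *Lrat*, at 0.0461 to 0.0930 TPM with apoC-III ASO and 0.0510 to 0.285 with control ASO. None of the markers in these lists was called. Whether the makeup of the tissue enters the bile acid values was not tested.

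The sign of some of the 10 genes turned under other scalings. *Cyp7a1*, *Cyp8b1* and *Slc10a1* were below 0 in each of the 23 alternatives run, at -1.47 to -0.22, -0.72 to -0.02 and -0.61 to -0.0041. *Abcb11* was above 0 in 22 of 23. Several alternatives alter only the test or the filter and keep the reported fold change, so these are not 23 separate checks of direction. Without factors *Cyp8b1* was at -0.02 and *Slc10a1* at -0.0041, which is almost no difference. Without division by factors, the log2 fold change of the median gene was itself 0.41, and only 3 of the 10 were below 0, although 7 of the 10 were below that median as in the reported scaling.

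**Figure D5:**
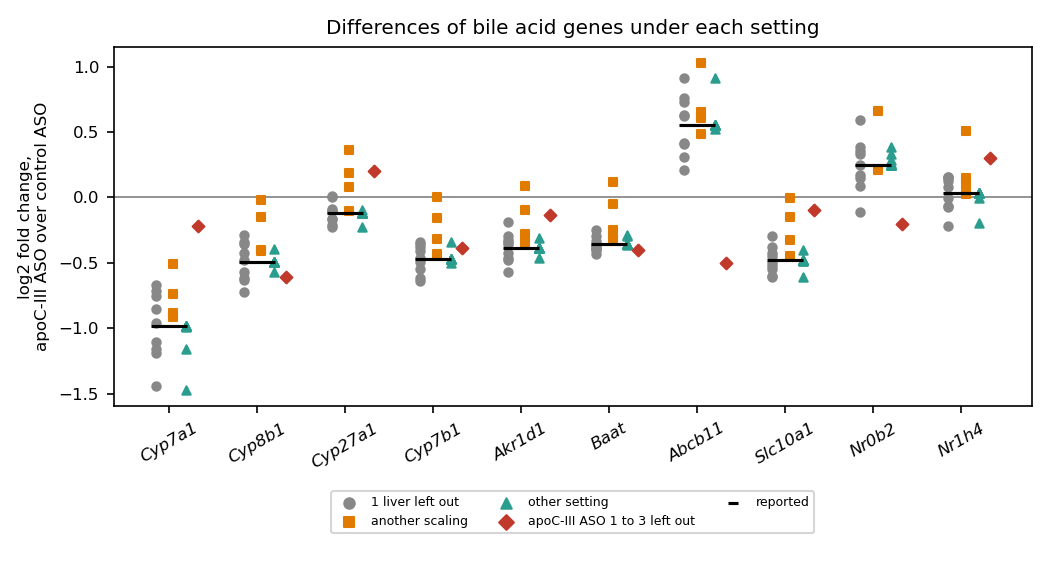
Log2 fold change of apoC-III ASO over control ASO (y axis) of each bile acid gene as reported (black bars), with 1 liver left out (grey), under another scaling (orange), under other settings of the test (green) and without apoC-III ASO livers 1 to 3 (red). *Cyp7a1* stays between -1.47 and -0.22, and *Abcb11* moves from 0.55 to -0.51 when the 3 livers are left out.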

How the data were processed

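Each mouse gave 1 stranded library depleted of ribosomal RNA, read from a single end. Values were deposited as TPM, and the submitters' processing notes name kallisto 0.43.1 and GRCm38. The study's methods name STAR, featureCounts and DESeq2 instead, and counts from those were not used here. Genes were matched to GENCODE M21 (51633 of 51912, 99.46%). For the 21780 nuclear protein-coding genes, TPM was scaled to a sum of 1000000 in each liver and divided by median-of-ratios factors from 12256 genes above 0 in all 9 livers. TPM as deposited was an alternative, because 7SL RNA dominates it. Genes with a mean of at least 1 were tested with limma 3.58.1 in R 4.3.3 (lmFit, eBayes with trend) on log2(rescaled TPM + 1), which understates changes of low genes, without covariates. These steps were tested on simulated data. Ratios and correlations used exact permutation tests (Python 3.11.15, scipy 1.17.1, numpy 2.4.6, pandas 2.3.3), and figures matplotlib 3.10.9. All value columns belonged to a mapped liver.

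The 10 genes, the 3 lists of other pathway genes, the lists of clock, sex-biased and cell type marker genes, and the tests were chosen with earlier results of these data known. Named were the 10 genes, of each pathway list the called genes and the 4 with the smallest p, *Apoc3*, the most abundant marker of each cell type, and *Dbp*, *Nr1d1* and *Arntl*. *Anpep*, *Ciart*, *Cyp2a4*, *Serpina1c*, *Lrat* and genes listed at 0 or under the minimum were named after their values were seen. A regulator that this rule names is not reported here. The correlation of *Dbp* with *Cyp7a1* is not given, because *Dbp* falls into separate clusters. Groups share replicate numbers 1 to 4, but same-numbered livers did not deviate together in every pair (correlations 0.0260 to 0.191), so the block by number is an alternative. Others were deposited TPM, median-of-ratios on all genes, no factors, quantile normalization, pseudocounts of 0.1 and 0.5, no filter, a minimum of 5, eBayes without trend, robust eBayes, array weights, exact permutation, other call thresholds and each liver left out. Leaving out apoC-III ASO livers 1 to 3, and other scalings for the correlations, were added after seeing the data.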

Additional observations from a re-analysis of the deposited data

Results flagged for a closer look

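*Slco1b2*, the importer of unconjugated bile acids, was at 2658 rescaled TPM in control ASO liver 4, far from the other 3 control ASO livers at 850 to 1157. Over 56 groups looked at in the same way it was the only value to stand out, and chance alone marks about 1 in 20 groups. The liver is the one with the lowest protein-coding share of deposited TPM (1.94%), and the part of that share in the value was not tested.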

How the results depend on the processing

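The count of bile acid genes called was 0 under each of the 25 alternatives run. Genes called in all (2 as reported) numbered 11 on TPM as deposited, 1 without factors, 1 with no filter on low values, 1 by eBayes without a trend, 0 by the exact permutation test, 0 without apoC-III ASO replicates 1 to 3, and 1 to 3 with 1 liver left out. *Apoc3* was at -2.62 on TPM as deposited (adjusted p = 0.104 in limma), at -2.69 without apoC-III ASO replicates 1 to 3 (0.104) and at -3.01 by the exact permutation test (adjusted 0.868, where the number of splits cannot reach the threshold over all genes), and from -3.14 to -2.91 with 1 liver left out. Signs of single genes turned as follows, and the cause was not tested. *Cyp27a1* was 0.18 on TPM as deposited, 0.36 without factors, 0.076 after quantile normalization, 0.20 without apoC-III ASO replicates 1 to 3 and -0.23 to 0.0068 with 1 liver left out. Without factors *Cyp7b1* was 0.0061, *Akr1d1* 0.087 and *Baat* 0.12. Without apoC-III ASO replicates 1 to 3 *Abcb11* was -0.51 and *Nr0b2* -0.20. *Nr1h4* was -0.19 with array weights. With 1 liver left out, *Nr0b2* was -0.11 to 0.59 and *Nr1h4* -0.22 to 0.15. *Nr0b2* was not tested on TPM as deposited, where its mean was under 1.

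The replicate block gave 3 genes called in all, 0 bile acid genes called, 2 bile acid genes with an unadjusted p under 0.05 (*Slc10a1* and *Abcb11*) and *Nr1h4* at -0.0027. Of the 4 control ASO livers, 2 correlated best with the treated liver of their own number. The block changed no other call. No control ASO liver has the number 5, so the block sets aside apoC-III ASO replicate 5. Its fold changes equal those with that replicate left out. Unadjusted p under 0.05 also arose for *Cyp7a1* with array weights (0.00564), for *Cyp7a1* without control ASO replicate 4 (0.00820), and for 1 or 2 genes in 3 other fits that left out a liver, with adjusted p of 0.503 to 0.869 in limma.

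Without apoC-III ASO replicates 1 to 3 the log2 differences of the ratios turned to -0.40 (*Cyp8b1* to *Cyp7a1*), -0.17 (*Cyp7b1* to *Cyp7a1*), -0.41 (*Abcb11* to *Slc10a1*), -0.51 (*Nr0b2* to *Nr1h4*) and 0.27 (*Akr1d1* to *Baat*). With 1 liver left out the ranges were -0.0076 to 1.16, 0.12 to 0.96, 0.50 to 1.53, -0.27 to 0.55 and -0.18 to 0.094 in that order. The r of *Nr0b2* with *Cyp7a1*, *Cyp8b1* and *Nr1h4* became 0.42, 0.55 and 0.59 on TPM as deposited and 0.12, 0.079 and 0.47 without factors. That of *Nr1h4* with *Abcb11* was 0.73, 0.64 and, with median-of-ratios on all genes, -0.0026, and that of *Cyp7a1* with *Cyp8b1* 0.65, 0.094 and 0.048. Depth is unknown, so genes at low TPM such as *Nr0b2* carry a counting error that could not be given.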

Other observations

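Genes known to differ between the sexes in mouse liver were read as a check on the livers. The male-biased list of 6 genes summed to 7643 to 19507 rescaled TPM with apoC-III ASO and 8092 to 16160 with control ASO, with 1 higher, 5 lower and a median log2 fold change of -0.06. Of the 6 female-biased genes 5 were under the minimum. The remaining gene, *Cyp2a4*, a steroid hydroxylase with near-identical copies that make its value uncertain, was at 0.475, 70.7, 51.3, 1.38 and 184 with apoC-III ASO and at 97.3, 133, 207 and 154 with control ASO. ApoC-III ASO livers 1 and 4 were far below the rest. Its log2 fold change was -2.93 (SE 1.25, limma with Benjamini-Hochberg adjusted p = 0.878, unadjusted 0.0384). These 2 livers do not share a side in the bile acid genes: *Cyp7a1* was at 128 and 244, *Abcb11* at 218 and 89.6 and *Cyp8b1* at 125 and 57.9.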
